A study of Mus musculus with 8 samples.

Results

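CAD cells are a mouse catecholaminergic line, a variant of Cath.a cells, which came from a brain tumour of a mouse that carried the SV40 large T antigen under the promoter of Th. They divide in serum and extend processes when serum is withdrawn. Described here are the 4 RNA-seq libraries of the control cells, of 8 libraries in the series; they were chosen by their label alone, and the other 4, from cells in which Pfn1 had been targeted with CRISPR/Cas9, were not analysed here. The control cells were undifferentiated, grown in 8% fetal bovine serum, and are titled wild type while their genotype label reads as a control knockout. What they received was not resolved here. The labels call them biological replicates and do not say whether they were separate cultures or clones. No group was compared and no test between groups was run, so every value below is a description. Values are given as the mean ± SD of the 4 libraries (controls 1 to 4) unless stated otherwise.

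Catecholamines are made from tyrosine in a short chain of reactions. Tyrosine hydroxylase (Th), which needs tetrahydrobiopterin, makes DOPA, aromatic amino acid decarboxylase (Ddc) makes dopamine, dopamine β-hydroxylase (Dbh) makes noradrenaline inside the granule, and Pnmt makes adrenaline. Vesicular monoamine transporters load the amines into granules, plasma membrane transporters take them back up, and monoamine oxidases break them down. In the sympathetic and adrenal lineage, Phox2a, Hand2 and Gata factors switch these genes on; in dopamine neurons of the midbrain a different set is used, among them Lmx1a, Foxa2, En1, Nr4a2 and Pitx3.

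The values are RPKM, the reads of a gene per kilobase of its length, scaled by the counted reads of the library, so levels of different genes can be set side by side per length. The worth of 1 read was read off the values of short single-exon genes, which gave about 34041272, 34510724, 26227071 and 29062483 counted reads for controls 1 to 4. At these depths 1 read on a gene of 2 kilobases is worth 0.0145 to 0.0191 RPKM. A gene counts as detected here when its mean is at least 1 RPKM. Read numbers printed for single genes are the smallest whole numbers that give the listed values, and can fall short of the true count where all 4 share a factor.

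Of 23038 genes in the table, 11158 (48.4%) were detected, and 10919 reached 1 RPKM in all 4 libraries. The median of the detected genes was 10.95 RPKM, with quartiles of 4.51 and 25.7. At least 10 RPKM was reached by 5891 genes, at least 100 RPKM by 555 and at least 1000 RPKM by 11. A further 6000 genes lay above 0 and below 1 RPKM. Among 20307 protein-coding genes 10642 were detected, against 286 of 1689 long noncoding RNA genes, 63 of 86 small nucleolar RNA genes and 58 of 517 miRNA genes. The miRNA entries are counts of total RNA fragments over hairpin genes, not of mature miRNAs; the highest was Mir421, at 276 ± 24.6 RPKM.

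The top of the ranking was held by 3 noncoding RNAs. Rn45s, the precursor of ribosomal RNA, was listed at 23869, 22618, 24309 and 15691 RPKM in controls 1 to 4, after a library preparation that depletes ribosomal RNA per the labels. Control 4 was the low library, and Rn45s took 9.15% of its reads against 13.2 to 14.2% in the other 3. Rmrp, the RNA of RNase MRP, followed at 9857 ± 56.5 RPKM, and Rpph1, the RNA of RNase P, at 8730 ± 174 RPKM. Both RNAs are short, and each took from 0.269 to 0.289% of the reads in a library.

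Actb, cytoplasmic β-actin, led the protein-coding genes at 2347, 2307, 2325 and 2401 RPKM. Hsp90ab1, a constitutive cytosolic HSP90, was at 1746 ± 55.1 RPKM, and Atp5b, the catalytic β subunit of the mitochondrial ATP synthase, at 1690 ± 27.6 RPKM. These 3 genes spread by 1.64 to 3.16% (coefficient of variation, CV, the SD as a percentage of the mean), and Rn45s by 18.6%. Gnb2l1, the ribosome-bound scaffold RACK1, stood at 1292 ± 27.7 RPKM. The elongation factors Eef2 (914 ± 12.4 RPKM) and Eef1a1 (907 ± 23.2 RPKM) and the tubulin Tubb5 (796 ± 13.7 RPKM) also lay among the 25 highest genes, as did Hint1, Cox4i1 of cytochrome c oxidase, the endoplasmic reticulum chaperone Calr (674 ± 21.5 RPKM) and the galectin Lgals1 (665 ± 18.1 RPKM).

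**Figure D1:**
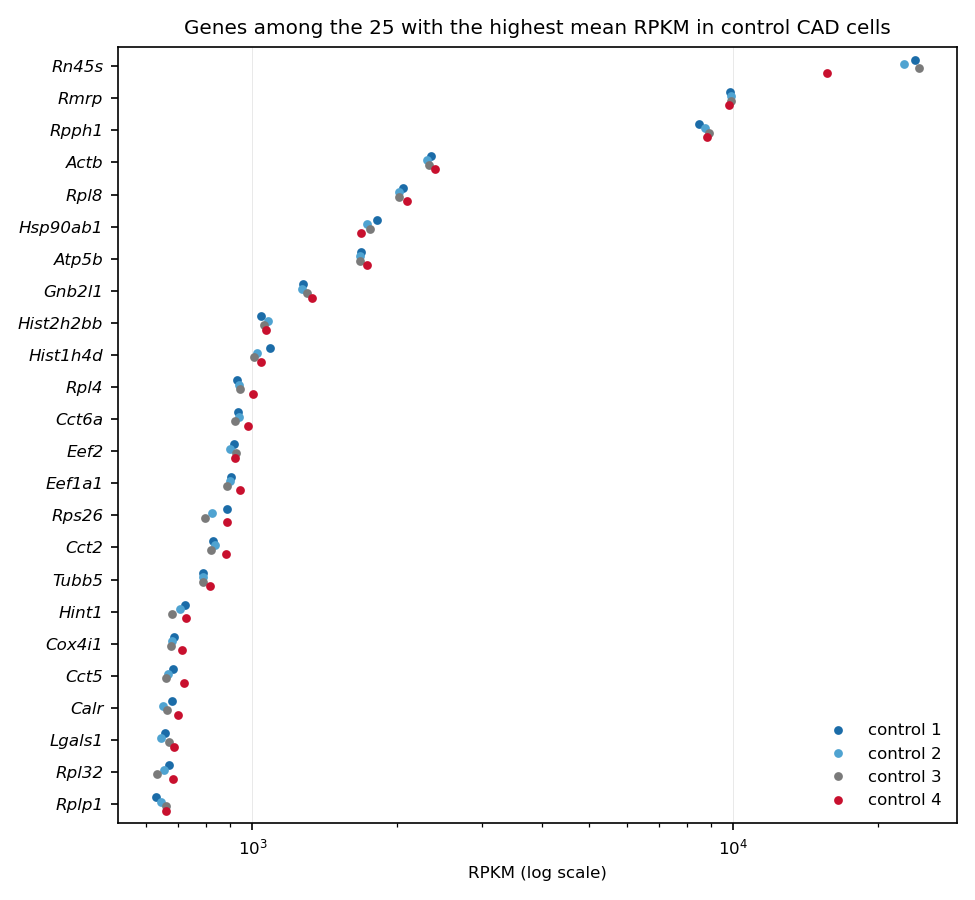
RPKM (log axis) of genes among the 25 with the highest mean, 1 point per control library. Points of a gene lie close together except for Rn45s, where control 4 is at 15691 RPKM and the other 3 are between 22618 and 24309.

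All 8 subunits of TRiC, the ring-shaped chaperonin that folds actin and tubulin, lay between 367 RPKM (Cct4) and 943 RPKM (Cct6a), with a median of 520.5 RPKM. Cct6a, Cct2 and Cct5 were among the 25 highest genes of the table. Cct2 was listed at 828, 838, 820 and 883 RPKM. The lists of TRiC, histone and ribosomal protein genes were drawn up after their levels had been seen. Of the 64 genes of the histone clusters 57 were detected, with a median of 117 RPKM and the highest value in Hist2h2bb (1060 ± 13.7 RPKM). All 50-base stretches of the Hist2h2bb transcript, and all of Rmrp, are also found in a transcript annotated to another gene, so their reads cannot be assigned with certainty. Histone genes made up 3.30% of summed RPKM and ribosomal protein genes 3.67%.

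Levels of ribosomal protein genes, whose products are assembled into the same particle, differed by far more than the spread between libraries. All 77 were detected, the highest being Rpl8 at 2045 ± 37.6 RPKM. These genes have many processed copies in the mouse genome, and the share of each transcript's 50-base windows that also occur in a transcript of another gene ran from 0 to 98.7%. The 26 genes with the lowest shares (up to 38.5%) had a median of 145 RPKM, the next 25 genes 47.6 RPKM and the 26 genes with the highest shares (from 71.0%) 12.1 RPKM. Across the 77 genes, which share the same 4 libraries, Spearman's rho between level and share was −0.54. Rpl8 had 6.49% of its windows in another gene.

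Common reference genes showed a wide range as well. All 15 listed were detected. Gapdh, a glycolytic enzyme often used to normalize, stood at 16.4, 14.8, 14.96 and 15.4 RPKM, Ppia at 7.72 ± 0.499 RPKM and Pgk1 at 3.81 ± 0.298 RPKM. These are the lowest levels in the list, and of their windows 82.5%, 54.3% and 68.0% occur in another gene. Reference genes whose windows are all their own lay higher: Sdha at 96.8 ± 1.88, B2m at 77.2 ± 4.17, Hprt at 73.6 ± 1.85, Tfrc at 52.9 ± 1.82 and Gusb at 52.5 ± 2.62 RPKM. Whether the counting dropped reads with more than 1 match was not tested, and levels of genes with such copies are uncertain.

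**Figure D2:**
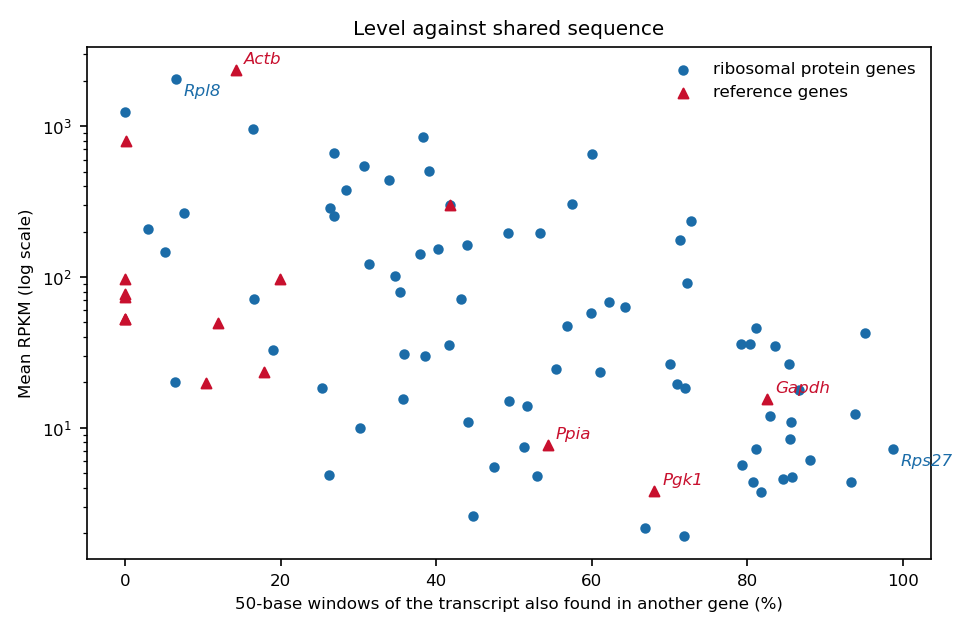
Mean RPKM over the 4 control libraries (log axis) against the percentage of a transcript's 50-base windows that occur in another gene, for 77 ribosomal protein genes (circles) and 15 reference genes (triangles). Points fall from the left, where Rpl8 and Actb lie above 2000 RPKM, to the right, where the 26 ribosomal protein genes with the highest shares have a median of 12.1 RPKM.

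Genes of neurons were detected in large part and at high levels. Of 34 pan-neuronal genes 28 were detected (82.4%, against 48.4% of all genes), 25 of them at 10 RPKM or more. Prph, an intermediate filament of peripheral and brain stem neurons, was the 39th highest gene of the table at 504, 511, 509 and 497 RPKM. Uchl1, a ubiquitin hydrolase abundant in neurons, was at 253 ± 4.64 RPKM, Dpysl3, a collapsin response mediator, at 230 ± 3.18 RPKM, and neuronal β-tubulin Tubb3 at 170 ± 4.53 RPKM. Prph had a CV of 1.24% and the other 3 genes had CVs of 1.38 to 2.66%.

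Growth cone and synaptic genes were detected too. Gap43, a growth cone protein, stood at 87.0 ± 1.55 RPKM, and the vesicle fusion genes Snap25 and Syt1 at 50.4 ± 2.60 and 45.1 ± 2.50 RPKM. The 6 genes of the list below 1 RPKM, named here after their values had been seen, were Nsg1 (0.430 RPKM), Thy1 (0.209), Nefl (0.0448), Nefm (0.0338), Rbfox3 (0.0126) and Dcx (0.00265). The light and medium neurofilament genes were thus at 2 to 5 reads or at 0 in each library, while Nefh, the heavy neurofilament, was at 46.5, 44.6, 45.4 and 39.1 RPKM and the neuronal filament Ina at 51.3 ± 1.68 RPKM. Dcx, a microtubule protein of migrating neurons, and Rbfox3, the NeuN antigen of mature neurons, were both close to 0.

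Of the 16 genes of catecholamine synthesis, storage, uptake and breakdown 11 were detected (68.8%, against 48.4% of all genes). Their levels fell far apart within the pathway. Dbh was listed at 30.6, 29.1, 33.5 and 33.4 RPKM and Th, the rate-limiting enzyme, at 1.69, 2.38, 2.65 and 2.29 RPKM, with 101, 144, 122 and 117 reads. Th was lowest in control 1, and no library of Th came near the level of Dbh. Ddc lay lower still, at 0.371, 0.235, 0.361 and 0.388 RPKM (28, 18, 21 and 25 reads). In RNA from whole cultures, fewer expressing cells and less RNA per cell cannot be told apart. Pnmt was listed at 0 in all 4 libraries, where 3 reads over the 4 libraries would have given 0.0273 RPKM.

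Enzymes of the cofactor were at higher levels than Th. Gch1, the first enzyme of tetrahydrobiopterin synthesis, stood at 44.3, 43.6, 43.1 and 45.8 RPKM, the highest of the 16 genes. Qdpr, which recycles the cofactor, was at 19.0 ± 0.307 RPKM, and the second and the last enzyme of its synthesis, Pts and Spr, at 6.91 ± 1.06 and 6.70 ± 0.281 RPKM. Of the vesicular transporters, Slc18a1 (VMAT1) was at 3.59 ± 0.200 RPKM and Slc18a2 (VMAT2) at 1.30, 1.19, 1.15 and 1.66 RPKM. The lowest value of Slc18a1 was 3.32 RPKM, so the ranges of both transporters did not overlap. The uptake transporters were at or near 0: Slc6a2, for noradrenaline, was listed at 0 in all libraries, and Slc6a3, for dopamine, had 1 read in control 2 and none in the other 3. Among the breakdown enzymes Maoa was at 17.5 ± 0.909 RPKM and Maob at 0.180 ± 0.0512 RPKM. Cyb561, the granule cytochrome that regenerates ascorbate for Dbh, was at 15.2 ± 0.465 RPKM.

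Promoters are shown of the detected catecholamine genes with the lowest levels, Th and Slc18a2, and with the highest, Dbh and Gch1. Base composition differed among them as well. Each promoter runs from 250 bases before the RefSeq start (GRCm38.p6) to 50 after it, 5′ to 3′ on the gene's strand. Capitals mark 3 motifs searched on both strands: the cAMP response element TGACGTCA, the TATA box letters TATAAA and the GC box letters GGGCGG.
Th, chr7:142899946-142900245, minus strand: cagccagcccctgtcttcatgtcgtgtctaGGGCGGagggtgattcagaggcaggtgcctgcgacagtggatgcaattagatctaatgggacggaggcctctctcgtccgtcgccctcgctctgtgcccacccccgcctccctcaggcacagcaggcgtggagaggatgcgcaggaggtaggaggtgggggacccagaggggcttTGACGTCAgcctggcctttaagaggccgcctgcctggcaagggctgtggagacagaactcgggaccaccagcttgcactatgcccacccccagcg
Slc18a2, chr19:59260628-59260927, plus strand: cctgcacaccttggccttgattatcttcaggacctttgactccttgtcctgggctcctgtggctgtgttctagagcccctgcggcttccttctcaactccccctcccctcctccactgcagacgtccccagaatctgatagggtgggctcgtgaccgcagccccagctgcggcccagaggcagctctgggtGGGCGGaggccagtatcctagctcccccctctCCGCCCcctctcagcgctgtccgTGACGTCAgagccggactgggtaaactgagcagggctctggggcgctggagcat
Dbh, chr2:27165257-27165556, plus strand: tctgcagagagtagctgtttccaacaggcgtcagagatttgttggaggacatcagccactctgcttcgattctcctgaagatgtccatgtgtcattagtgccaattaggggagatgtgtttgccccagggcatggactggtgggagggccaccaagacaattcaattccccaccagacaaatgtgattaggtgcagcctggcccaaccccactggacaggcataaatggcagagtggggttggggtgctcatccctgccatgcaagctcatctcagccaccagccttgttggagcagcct
Gch1, chr14:47189364-47189663, minus strand: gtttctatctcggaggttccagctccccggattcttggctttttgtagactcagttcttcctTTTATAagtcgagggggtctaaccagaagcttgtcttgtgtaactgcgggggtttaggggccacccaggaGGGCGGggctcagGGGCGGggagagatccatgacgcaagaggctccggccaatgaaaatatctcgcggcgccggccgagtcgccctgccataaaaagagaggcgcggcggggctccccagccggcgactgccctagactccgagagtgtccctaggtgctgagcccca

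The cAMP response element letters began 45 bases before the start of Th and 4 bases before that of Slc18a2. In Slc18a2 they run across the start. These letters are held by 1.85% of the 22862 genes with 1 promoter in the RefSeq table. None of the 3 motifs was found in the Dbh window, and its ratio of observed to expected CpG was 0.0916. Gch1, with a level close to that of Dbh, had a ratio of 0.738 and GC box letters at 2 positions. It also had the TATA box letters on the opposite strand 188 bases before the start. Of the 22862 genes, 35.2% hold GC box letters and 14.8% TATA box letters. Among protein-coding genes with 1 promoter from 10 to 100 RPKM these shares were 70.9% and 5.84%. A match is a run of letters and not a site of binding.

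Over 13575 protein-coding genes with 1 promoter in the RefSeq table, base composition went with level. The median CpG ratio was 0.172 for the 3590 genes listed at 0, 0.373 for genes above 0 and under 1 RPKM, 0.758 from 1 to 10 RPKM, 0.834 from 10 to 100 RPKM and 0.837 for the 383 genes at 100 RPKM or more. GC box letters were in 14.2% of the promoters at 0 and in 69.45% of those at 100 RPKM or more. TATA box letters were in 28.4% of promoters at 0, in 5.98% and 5.84% of the classes from 1 to 10 and from 10 to 100 RPKM, and in 15.7% of those at 100 RPKM or more. Without odorant, vomeronasal and taste receptor genes the median CpG ratio of the genes at 0 was 0.216. By these classes Dbh had a CpG ratio below the median of the genes at 0.

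Transcription factors of the sympathoadrenal lineage were detected for 13 of 17 genes (76.5%, against 48.4% of all genes). Hand2, a helix-loop-helix factor of sympathetic neurons, led with 212, 209, 209 and 203 RPKM, and Phox2a, a homeodomain factor of noradrenergic neurons, followed at 148, 144, 146 and 139 RPKM. Both leading factors were above 100 RPKM in every library, a level that 555 genes reached on average. Sox4 (55.9 ± 2.02 RPKM), Gata2 (40.8 ± 0.668), Isl1 (23.4 ± 1.81), Sox11 (18.4 ± 0.517) and Tbx20 (14.5 ± 0.536) formed a middle group, and Tfap2a (5.94 RPKM), Insm1 (3.56), Eya1 (2.68), Tfap2b (2.54) and Gata3 (1.82) a lower one. Gata2 was thus far above its relative Gata3, with no overlap between libraries. Below 1 RPKM were Tlx3 (0.917 RPKM), Zic1 (0.391) and Hand1 (0.0175).

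Of the 11 genes of midbrain dopamine neurons, 3 were detected (27.3%, against 48.4% of all genes). They were Msx1 (4.32 ± 0.178 RPKM), Foxa1 (4.201 ± 0.282 RPKM) and Nr4a2, at 1.74, 2.13, 2.14 and 2.17 RPKM. En2 had 1 read in control 1 and none elsewhere, and Pitx3, Lmx1a, Lmx1b, En1, Foxa2, Otx2 and Aldh1a1 were listed at 0 in all 4 libraries. Of the 8 defining markers listed for midbrain dopamine neurons, which include Slc6a3, Nr4a2 alone was detected. Of the 14 listed for sympathoadrenal cells 11 were detected; Ddc and Slc6a2 were among those that were not. Of the 15 listed for neurons 13 were detected. Most listed markers of neurons and of sympathoadrenal cells were thus present in the labelled catecholaminergic line, and most midbrain dopamine markers were not.

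**Figure D3:**
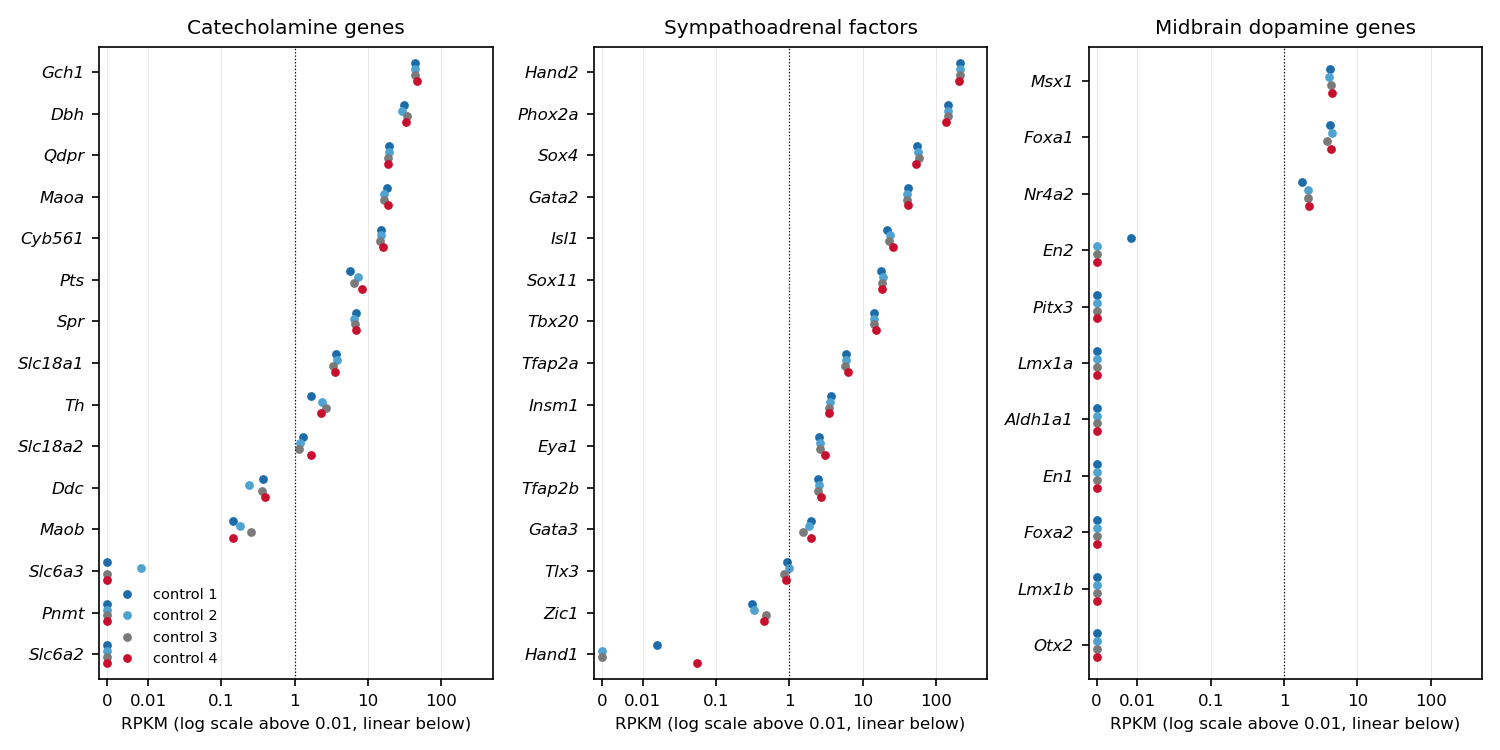
RPKM of each gene in each control library for catecholamine genes, sympathoadrenal transcription factors and midbrain dopamine genes; axes are logarithmic above 0.01 RPKM and linear below, and the dotted line is 1 RPKM. Dbh and Gch1 lie above 29 RPKM in every library while Th lies between 1.69 and 2.65, and 7 of the 11 midbrain genes are at 0 in all 4.

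Dense-core granules, which store amines and peptides, were represented by 15 of 18 genes (83.3%, against 48.4% of all genes). Vgf, a granin-like precursor, was listed at 208, 197, 206 and 152 RPKM, and chromogranin B (Chgb) at 179, 163, 174 and 133 RPKM. Chromogranin A (Chga) was at 62.4, 57.8, 60.04 and 50.5 RPKM. In these 3 genes control 4 was the lowest library and lay outside the range of the others. Their transcripts have GC contents of 64.1, 53.9 and 58.4%. Scg3, a granin that binds Chga, went the other way, at 62.7, 64.5, 63.7 and 70.5 RPKM, with a GC content of 46.5%. Resp18 was at 72.3, 72.5, 71.4 and 79.0 RPKM with 50.9%. Ptprn, whose mean is given below, was also highest in control 4, at 44.46 RPKM against 42.82 to 44.22, with 59.5%. Whether GC content had a part in these differences was not tested.

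Among the remaining granule genes, Cpe, the carboxypeptidase of prohormone processing, was at 57.4 ± 2.08 RPKM, Ptprn at 43.6 ± 0.879, Scg2 at 42.3 ± 1.495, Syt4 at 21.7 ± 0.737, the amidating enzyme Pam at 21.5 ± 1.15, Scg5 at 20.6 ± 1.499, Pcsk1n at 14.8 ± 0.734 and Syt7 at 11.3 ± 0.439 RPKM. Ptprn2 (2.85 RPKM) and Dner (1.19 RPKM) were just detected. Both prohormone convertases fell below the threshold, Pcsk1 at 0.281 ± 0.0619 RPKM and Pcsk2 at 0.587 ± 0.0795 RPKM, and so did Cadps (0.00925 RPKM), a priming factor of granule release. Scg5 encodes the partner protein of Pcsk2, and Pcsk1n encodes an inhibitor of Pcsk1.

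Peptide precursors were few, with 15% of the list detected against 48.4% of all genes. Of 20 genes 3 were detected: Npy, the co-transmitter of sympathetic neurons, at 48.0, 46.4, 38.6 and 40.9 RPKM, Vip at 3.07 ± 0.514 RPKM and Cartpt at 2.94 ± 0.632 RPKM. Nmb (0.789 RPKM) and Pomc (0.584 RPKM) lay below the threshold, Pthlh, Ucn and Calca had at most 2 reads in a library, and 12 genes were listed at 0, namely Adcyap1, Crh, Grp, Calcb, Cck, Gal, Pdyn, Penk, Sst, Tac1, Nmu and Nts. Npy was thus the single gene of this list above 10 RPKM.

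Genes of other transmitters were detected for 6 of 18 (33.3%, against 48.4% of all genes). Nos1, neuronal nitric oxide synthase, stood at 38.7, 39.2, 40.6 and 41.5 RPKM. Tph1, a tryptophan hydroxylase of serotonin synthesis, was at 3.34 ± 0.569 RPKM and the vesicular acetylcholine transporter Slc18a3 at 3.01 ± 0.163 RPKM. Tph2 (1.13 RPKM) and Ache (1.01 RPKM) were near the threshold, and Slc17a6 and Gad1, of glutamatergic and GABAergic neurons, were listed at 0. Chat, which shares its locus with Slc18a3, was at 0.0914 ± 0.0438 RPKM. Receptors for neurotrophic factors were detected for 7 of 12 (58.3%, near the share of all genes), led by Ret (76.1 ± 1.27 RPKM), Ngfr (72.5 ± 0.770 RPKM), Cntfr (45.8 ± 1.26 RPKM) and Il6st (8.43 ± 0.524 RPKM). The co-receptors that present ligands to Ret were low in comparison: Gfra1 was at 0.480, 0.913, 0.853 and 0.842 RPKM, Gfra2 at 0.634 ± 0.128 RPKM, Gfra4 at 1 read in controls 2 and 4 and Gfra3 at 0. Ntrk2, the BDNF receptor, was listed at 0.

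Markers of other cells were mostly below 1 RPKM, while 48.4% of all genes were detected. None of 9 oligodendrocyte genes, 12 microglia and blood genes or 7 epithelial genes was detected, and their summed levels ran from 0.663 to 1.18, from 0.265 to 0.540 and from 0.115 to 0.420 RPKM over the libraries. Detected were 1 of 8 astrocyte genes (Aldoc, 4.35 RPKM), 1 of 7 endothelial genes (Pecam1, 2.63 RPKM), 1 of 9 fibroblast and mural genes (Dcn, 2.84 RPKM), 1 of 7 adrenal cortex genes (Star, 2.05 RPKM) and 2 of 6 Schwann cell genes (Pmp22, 80.5 ± 2.58 RPKM, and Erbb3, 2.34 RPKM). Among the members at 0 in all 4 libraries were Slc1a3, Aqp4, Olig2, Mag, Tyrobp, Trem2, Tie1, Col3a1, Krt5 and Cyp11a1. Other members had reads at levels below 1 RPKM, such as Gfap (2, 0, 1 and 5 reads), Mog (2, 12, 6 and 9), Col1a1 (11, 3, 15 and 9), Epcam (12, 4, 8 and 19) and Pdgfrb (57, 82, 60 and 118). In the muscle list Myh3, an embryonic myosin heavy chain, was at 34.3, 32.6, 36.3 and 27.9 RPKM while Myod1, Myog and Ckm were at 0. In the pluripotency list Lin28a, an RNA-binding protein of early embryos, was at 23.1 ± 0.891 RPKM while Pou5f1 had 1 read and Zfp42 none.

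Progenitor genes were detected for 7 of 12 (58.3%, near the 48.4% of all genes). Vim was at 553 ± 15.1 RPKM, followed by Msi1 (18.8 ± 0.954 RPKM), Prom1 (12.7 ± 0.834) and Hes1 (11.99 ± 1.21). The neural stem cell factors Sox1, Sox2 and Sox3 and the fatty acid binding protein Fabp7 were listed at 0. Of 26 proliferation genes 25 were detected (96.2%), with a median of 64.5 RPKM; Top2a, a topoisomerase of dividing cells, led at 284 ± 10.7 RPKM, and Rrm1, Ccna2 and Cdk1 followed at 167 ± 7.45, 115 ± 4.71 and 107 ± 2.87 RPKM. Among the D cyclins Ccnd1 was at 74.9 ± 1.51 RPKM and Ccnd2 at 0.198 ± 0.0407 RPKM, the single gene of the list below 1 RPKM. All 13 genes of the p53 and Rb lists were detected, led by Trp53 (55.9 ± 2.80 RPKM), Bax (53.3 ± 2.15), Mdm2 (43.6 ± 2.29) and Cdkn2a (34.6 ± 1.24).

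The gene targeted elsewhere in the series, Pfn1, which binds actin monomers and feeds them to growing filaments, was in these control cells at 428, 399, 429 and 436 RPKM, the 54th highest gene. Of 16 genes of the actin monomer pool 11 were detected (68.8%, against 48.4% of all genes). After Actb and Pfn1 came the severing protein Cfl1 (394 ± 6.99 RPKM), the monomer-binding Tmsb4x (112 ± 3.74), Dstn (75.7 ± 2.36), Cfl2 (41.1 ± 2.352), Cap1 (40.8 ± 0.891), Pfn2 (30.02 ± 1.23), Tmsb10 (19.9 ± 0.903), Actg1 (8.39 ± 0.733) and Cap2 (2.58 ± 0.215). Per length, Pfn1 was above Pfn2 in every library, and Pfn4 (0.107 RPKM) and Pfn3 (0) were not detected. Muscle actins Actc1, Acta1 and Acta2 lay between 0.172 and 0.429 RPKM. Of the windows of Actg1 56.7% occur in another gene, and its level is uncertain.

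Hox genes give cells a position along the body axis and lie in clusters read in order. Detected were 5 of 39 (12.8%, against 48.4% of all genes). They were Hoxc9 at 9.33, 8.98, 9.16 and 10.7 RPKM, Hoxc10 (3.94 ± 0.155 RPKM), Hoxc6 (2.88 ± 0.382), Hoxd8 (2.28 ± 0.256) and Hoxc4 (1.79 ± 0.302). All 11 Hoxa genes were listed at 0 in all 4 libraries, while 8 of 10 Hoxb genes had reads, at means from 0.00625 to 0.388 RPKM. In the Hoxc cluster 6 neighbouring genes from Hoxc4 to Hoxc10 had reads and Hoxc11, Hoxc12 and Hoxc13 were at 0. The Hoxc cluster therefore held 4 of the 5 detected genes. The other genes at 0 were Hoxb1, Hoxb13, Hoxd1 and Hoxd9, and 3 reads in all would have given 0.00771 RPKM (Hoxa10) to 0.0347 RPKM (Hoxa6).

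**Figure D4:**
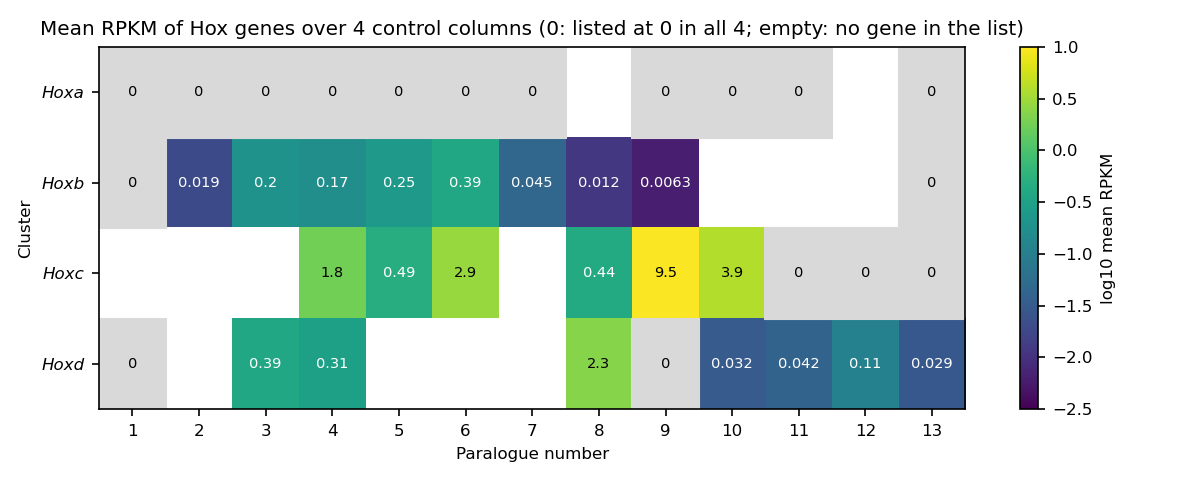
Mean RPKM of 39 Hox genes by cluster (rows) and paralogue number (columns) over the 4 control libraries, coloured on a log10 scale; grey squares are genes at 0 in all 4 libraries and white squares hold no gene. The Hoxa row is at 0 throughout and the highest value is Hoxc9 at 9.55 RPKM.

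In all, 5880 genes (25.5%) were listed at 0 in all 4 libraries, and 2580 were at 0 in 1 to 3 libraries. Of the 5880, 80.9% were protein-coding. Odorant receptor genes (symbols beginning Olfr) made up 17.3% of them: 1016 of 1109 were at 0 and 2 were detected, the higher being Olfr78 at 1.28 RPKM. At 0 were also 183 of 192 Vmn1r and 110 of 126 Vmn2r pheromone receptor genes, 31 of 35 Tas2r bitter taste receptor genes, 51 of 52 keratin-associated protein genes (Krtap) and 40 of 44 β-defensin genes (Defb), with no member of these families detected. Of 80 genes with symbols beginning Snor, small nucleolar RNA genes, 4 were at 0. On the Y chromosome 31 of 35 genes were at 0 and none was detected, the highest being Eif2s3y at 0.193 RPKM; Xist, the X-linked RNA of X inactivation, was at 65.8, 66.7, 65.6 and 88.8 RPKM.

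An exact 0 in an RPKM table can also be a gene the counting could not serve, so families that dividing cells use were looked up after the data had been seen. Among 230 genes of the proteasome, respiratory complex I, the mitochondrial ribosome, RNA polymerase II, translation initiation and cytosolic tRNA ligases 223 were detected and 1, the testis proteasome subunit Psma8, was at 0. All 77 ribosomal protein genes and all 15 reference genes were above 0. For a gene of 2 kilobases 3 reads over the 4 libraries would have given 0.0121 RPKM.

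The 4 libraries lay close together. The median CV of the 11158 detected genes was 5.89%, and 79.1% of them had a CV under 10%. It was 28.1% for the 2612 genes from 0.1 to 1 RPKM, 9.89% for the 3083 from 1 to 5, 6.02% for the 4568 from 5 to 20, 4.18% for the 2952 from 20 to 100 and 3.01% for the 555 at 100 RPKM or more. For the 4942 detected genes whose values gave whole reads, the median CV was 6.34%, and the random error of counting those reads has a median CV of 3.92%. From 0.1 to 1 RPKM the values were 27.6% against 23.0%, and at 100 RPKM or more 3.22% against 1.26%. The observed spread was above that of read counting in both classes, by a larger ratio in the high one.

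Control 4 stood apart from the other 3. Pairs among controls 1, 2 and 3 differed by over 1.2-fold in 783 to 818 of the 11158 detected genes (7.02 to 7.33%). Control 4 differed from controls 1, 2 and 3 in 2030, 1299 and 2055 genes (11.6 to 18.4%). Its genes deviated from the mean of the others by a median absolute log2 ratio of 0.11, against 0.05 to 0.08 for each of the other libraries. Part of this was a shift of scale, as the median log2 ratio of control 4 was 0.09; after scaling by the median of ratios its pairs differed in 1421, 1021 and 1459 genes and the other pairs in 738 to 805. Without control 4 the median CV was 4.19%. Between every pair of libraries the median chi-square of the read counts, from 0.999 to 2.51, was above the 0.455 of counting error alone; this does not show whether the samples were separate cultures.

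For controls 3 and 4 the deviations went with the GC content of the transcript. Each library is part of the mean that the others are set against, so opposite trends of these libraries can mirror each other. Over 7920 genes at 5 RPKM or more, Spearman's rho between GC content and the log2 ratio to the other libraries was −0.44 for control 4, 0.50 for control 3, 0.14 for control 1 and −0.09 for control 2; the genes share the libraries and these are descriptions. With transcript length the same measure was −0.29, 0.08, −0.003 and 0.17 for controls 1 to 4. In 5 equal bins of these genes by GC content, from the lowest bin (up to 44.4%) to the highest (from 56.0%), the median log2 ratio of control 4 fell from 0.13 to 0.01, and that of control 3 went from −0.09 to 0.03. The part of GC content, of transcript length or of the lower Rn45s share, in the deviation of control 4 was not tested.

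**Figure D5:**
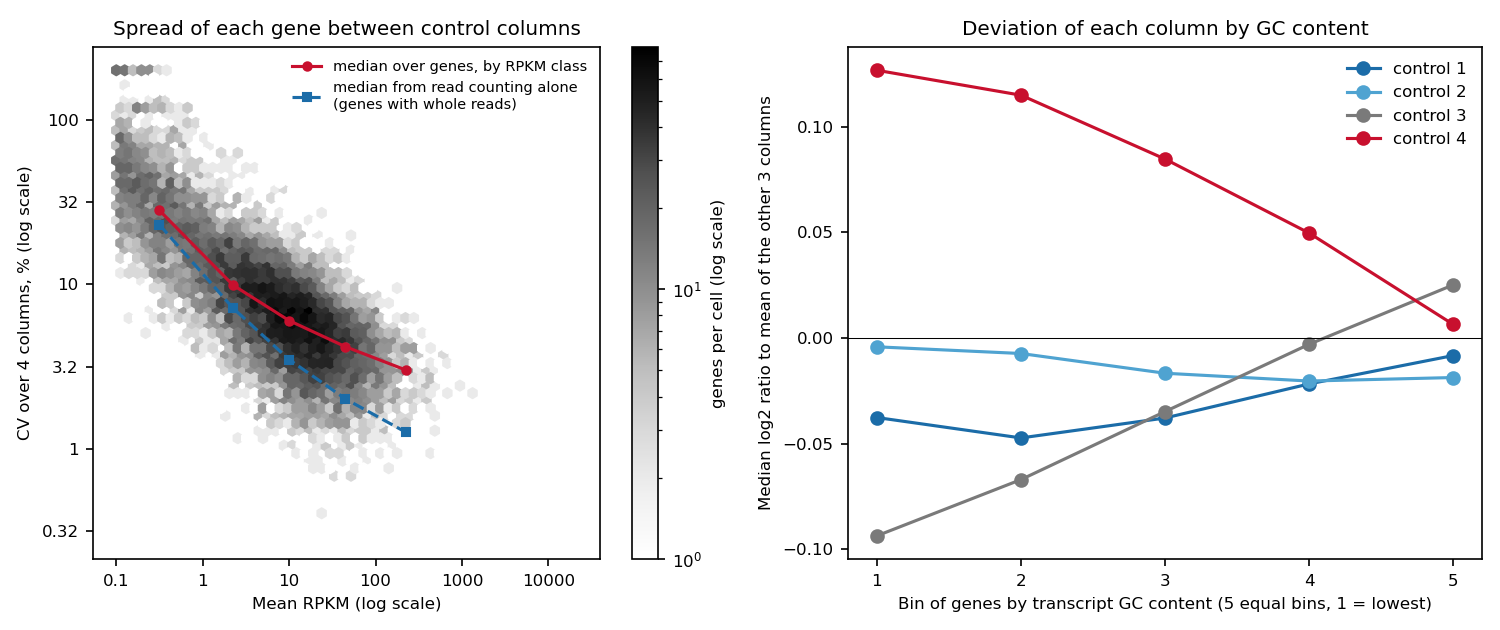
Left, the CV over the 4 control libraries against mean RPKM (both log axes) for all genes from 0.1 RPKM, shaded by the number of genes, with the median per RPKM class (circles) and the median that read counting alone gives (squares). Right, the median log2 ratio of each library to the mean of the other 3 in 5 equal bins of genes by GC content; control 4 starts at 0.13 in the lowest bin and ends at 0.01, and control 3 rises from −0.09 to 0.03.

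Genes at 5 RPKM or more were ranked by their ratio in control 4 to the other libraries. Left out were pseudogenes, genes not matched to RefSeq, among them Rn45s, and placeholder symbols (Gm with a number, LOC or Rik). The lowest were 2 small RNA genes, Snord55 and Scarna10, and then Myh9, Safb, Nes, Ppp1r9b, Ccdc61 and Cenpb. Myh9, the heavy chain of nonmuscle myosin IIA, was at 75.1, 62.9, 70.1 and 40.5 RPKM, and Nes, the progenitor filament nestin, at 9.11, 7.44, 8.49 and 5.04 RPKM. The 6 protein-coding genes had GC contents from 55.5 to 62.3%. At the other end stood Snord91a, Mir19a, Snord110, Snord57, Malat1, Gria2, Mir3061 and Snord83b. Malat1, a nuclear noncoding RNA, was at 292, 382, 322 and 631 RPKM, and Gria2, a glutamate receptor subunit, at 5.14, 6.84, 6.02 and 11.4 RPKM, with GC contents of 42.5 and 36.8%.

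Short RNA genes spread more than protein-coding genes at the same RPKM, on far fewer reads. The median CV of the 63 small nucleolar, miRNA and guide RNA genes at 5 RPKM or more was 20.02%, against 4.91% for 7882 protein-coding genes at that level, and 36 of the 100 highest CVs fell on such genes. Placeholder symbols (Gm with a number, LOC or Rik) were left out of the ranking that follows. In it Mir5109 was the extreme, at 55.7, 1.67, 0.877 and 2.77 RPKM, so control 1 alone was high. It was followed by Snord91a (9.30, 10.6, 10.2 and 26.95 RPKM) and Mir19a (5.73, 5.30, 4.65 and 13.01 RPKM), both high in control 4. Mir19a rested on 16, 15, 10 and 31 reads and Snord57 on 16, 17, 5 and 22. The next in order were Snord57, Snord110, Mir18, Snora5c, Mir3061 and Snord42a, with CVs from 38.4 to 48.5%, and Gria2 was the protein-coding gene among the 10 highest. Some genes of high level spread far less. Hist1h1a, a linker histone, had a CV of 0.512% at 570.5 RPKM, and Rmrp one of 0.573%. The lowest CVs were not ranked.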

How the data were processed

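RNA of 4 control and 4 Pfn1-targeted libraries was sequenced after ribosomal RNA depletion with a stranded kit, per the labels' protocols. The authors deposited 1 table of RPKM values for 23038 genes; only the 4 control columns were used. The submitters' processing notes list the human build hg19 and the tools TopHat, Bowtie, RSEM, CASAVA and edgeR without giving any of them a role. Strand use and treatment of reads with several matches are not given in the sources used here. As the values are RPKM and 1 group is described, no test between groups was run. Dixon's criterion served only to flag libraries.

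RefSeq on GRCm38.p6 was joined by gene number (22959 matched; 25 symbols turned into dates were renamed) and gave names, classes, chromosomes and promoters. GC content, length and shared 50-base windows came from GENCODE M21 transcripts. Depth and reads were computed from the control values: 10455 of the 17158 genes above 0 (60.9%) gave whole reads within 1e-06 in all 4 libraries; why the rest did not was not resolved. For genes at 0, lengths came from the authors' group RPKM, and the limit is 3 reads over 4 libraries. Such limits cover counting error only. Python 3.11.15, numpy 2.4.6, pandas 2.3.3 and scipy 1.17.1 were used, and the recovery of depth, reads and CV was tested on simulated data.

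The libraries were taken by their label, and the members to describe and the 25 gene lists were chosen with earlier results of these data known. Named genes follow a rule: the 25 highest genes, the highest protein-coding genes, all members of the main lists, the 4 highest and those at 0 in others, the 10 highest CVs, and 8 genes at each end of control 4. Some of these genes are not reported here. Thresholds, scaling, pseudocount and leaving out each library were varied.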

Additional observations from a re-analysis of the deposited data

Results flagged for a closer look

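The 259 items checked were named genes and a few measures of whole libraries, such as estimated reads. In 16, all of them genes, 1 library lay far from the other 3 by Dixon's 95% criterion for the gap over the whole range. Chance gives about 1 in 20 for genes picked without regard to spread. The checked set also took in the genes of highest CV and those farthest off in control 4. Snord91a, Mir19a, Bche, Ccdc61 and Mir5109 are among these, so the counts cannot be set against chance. The far library was control 4 in 11 genes, control 1 in 4 and control 3 in 1. In control 4, higher than in the others, were Rpl4 (1004 RPKM, the others 930 to 942), Tubb5 (816.7 RPKM, the others 788 to 791), Rrm1 (178.3 RPKM, the others 162 to 164), Resp18 (79.0 RPKM, the others 71.4 to 72.5), Xist (88.81 RPKM, the others 65.6 to 66.7), Snord91a (26.95 RPKM, the others 9.30 to 10.6), Stmn2 (12.98 RPKM, the others 10.3 to 10.5), Mir19a (13.01 RPKM, the others 4.65 to 5.73), Bche (7.946 RPKM, the others 4.65 to 5.08) and Slc6a4 (0.1127 RPKM, the others 0.0416 to 0.0535). Ccdc61 was lower there, at 4.235 RPKM against 6.24 to 6.27. In control 1, Mir5109 was at 55.71 RPKM (the others 0.877 to 2.77) and Mcm3 at 92.43 RPKM (the others 89.7 to 90.1), while Nr4a2 (1.74 RPKM, the others 2.13 to 2.17) and Gfra1 (0.4804 RPKM, the others 0.842 to 0.913) were lower. Slc32a1 was lower in control 3, at 0.09515 RPKM against 0.196 to 0.207.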

How the results depend on the processing

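No paired analysis was possible because 1 group was described and nothing was compared. The number of detected genes was 11963 at a threshold of 0.5 RPKM, 10142 at 2 RPKM, 12400 after each library was rescaled to a common sum well above its own, which raises every value and so lowers the threshold in effect, and 11106 to 11193 when each library was left out in turn. The number of genes listed at 0 was 8655 when off meant under 0.1 RPKM in all 4 libraries, and 6085 to 6249 with each library left out. The median CV was 7.44% over all genes above 0 in all 4 libraries and 4.95% over genes at 5 RPKM or more, 5.58% and 5.11% after rescaling to 1 sum and by the median of ratios, and 4.185 to 6.338% with each library left out, lowest without control 4. The median SD of log2(RPKM + 1) was 0.07, or 0.08 with 0.1 added, and from 0.05348 to 0.08015 with each library left out. The 10 and 100 highest genes held 14.8% and 27.1% of summed RPKM (14.54 to 15.45% and 26.88 to 27.7% with each library left out), but 4.71% and 18% without ribosomal RNA and the small RNA classes, by construction of that sum. Over the 25 lists, 171 of 350 members were detected, 180 at 0.5 RPKM, 163 at 2 RPKM and 170 to 172 with each library left out. Of 150 counts of single lists under these settings 2 differed from the reported count by over 1.5 times, both at 0.5 RPKM: neuropeptide precursors at 5 and oligodendrocyte genes at 1; smaller changes of a list's count are not listed. From 0.1 to 1 RPKM the median CV was 27.6% and that of counting 23.0%, so differences there are hard to see at this depth.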
